A study of Mus musculus with 48 samples.

Results

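The 50 genes described here are those whose RNA level in control NIH 3T3 mouse fibroblasts followed a 24-h wave with its crest from 30 to under 36 h after a serum pulse. They were chosen by a least-squares 24-h cosine on the log2 exon RPKM (a read count divided by exon length and library size, plus 0.1) of the 12 control total RNA libraries. Of 11313 genes in the table, 10196 had a mean RPKM of at least 1, and 162 of those also had a fitted peak in the window and an amplitude (crest minus mean) of at least 0.2 on the log2 scale. Leaving out 12 genes by name (Arntl, Nfil3, Sh3pxd2b and 9 with symbols starting with Adam, Mmp or Kif) left 150. The 50 with the highest R squared were kept. Clock and Cry1 were also to be left out, but neither had passed the other limits. The R squared values ran from 0.972 for Sash1 to 0.648 for Pdxp, 0.648 for Tbc1d10a and 0.647 for Gm26885, and the first 3 genes outside were Vps37d at 0.642, Rgs10 at 0.641 and Gm44987 at 0.639. The wave in control total exon RNA therefore describes these genes and was not tested.

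The study measured 48 libraries of a single mouse fibroblast line, NIH 3T3, in 4 groups of 12. One stable line carried the control hairpin (shCTRL) and the other a hairpin against Bmal1 (shBmal1). Both were held in 50% horse serum for 2 h and sampled every 2 h from 24 to 46 h, and the samples include no unsynchronized cells. At each time point 30 µg of RNA from cells labelled with 4-thiouridine (4sU, a uridine analogue that cells build into RNA as it is made) went to the pull-down, and the remainder was kept as total RNA, so a 4sU library and its total RNA library came from the same extract and are not replicates of each other. There was 1 library per group and time point. The p-values below therefore measure the scatter of single libraries around a fitted curve, and the effect of the hairpin and that of the line that carries it cannot be told apart.

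Serum resets the circadian clock of cultured fibroblasts. In that clock BMAL1 (encoded by Arntl) and CLOCK switch on genes through E-boxes, among them the Per, Cry and Nr1d genes, and the NR1D and ROR proteins then act on ROR elements (ROREs) in Arntl, Nfil3 and other genes, whose RNA peaks several hours after that of direct E-box targets. Serum also drives cell division, and mitotic genes rise together in G2 and M phase through CHR and CCAAT elements in their promoters. In a bulk sample, fewer cells in a phase and less RNA per cell cannot be told apart.

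The libraries held 48873013 to 76260143 reads behind the exon RPKM, recovered from the step size of the values. Summed RPKM of the 10 fibroblast markers in the table (of 11 listed) lay between 6025 and 6839 in control libraries and between 4948 and 5923 in shBmal1 libraries, against 0.245 to 23.2 for the listed markers of any of 6 other cell types, of which 1 to 3 each were in the table. The epithelial marker Krt14 ranged over 2.19 to 4.45 RPKM in control libraries and 7.21 to 13.3 RPKM in those of the other line. Arntl exon RNA was lower in the shBmal1 line by 0.92 ± 0.08 (SE, log2; limma adjusted p = 3.59e-09), and at 24 h, the control trough, its level was 2.25 RPKM against 1.33. Its 4sU intron RNA was higher in that line, by 0.57 ± 0.08. The members' most frequent crest in single libraries was at 30 h in shCTRL total RNA, where 27 of 50 had their highest value, as did 24.1% of all genes tested. The shBmal1 libraries at 26, 30 and 34 h stood apart from those at 28 and 32 h between them. The mean of the former differed from the mean of the latter by more than 0.3 (log2) in 28.2% of genes in total exon RNA and 33.4% in 4sU exon RNA, against 3.62% and 2.27% in shCTRL. Of the members, 8 were higher and 6 lower by that measure in shBmal1 total RNA, and none in shCTRL. This was seen in the data, so results in shBmal1 are given with and without those 3 time points.

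The promoters of members that move together show which clock and mitotic elements lie near their starts. RefSeq (GRCm38.p6) gave 45 promoters of 35 of the 50 members, taken here as the 250 bases before a start on the gene's strand. The first 5 members by R squared that hold a searched motif were Nid1, Pim1, Plin2, Zfand5 and Plxnd1. Cdc20 and Ckap2 were added after their values were seen, as mitotic members. Capitals mark matches on either strand to the RORE half-site AGGTCA (reverse TGACCT), the E-box CACGTG, the CHR TTTGAA or the CCAAT box (reverse ATTGG). Nid1 was read at chr13:13437352-13437601 (plus strand), Pim1 at chr17:29492835-29493084 (plus), Plin2 at chr4:86670060-86670309 (minus), Zfand5 at chr19:21272028-21272277 (plus), Plxnd1 at chr6:115995006-115995255 (minus), Cdc20 at chr4:118437344-118437593 (minus) and Ckap2 at chr8:22185820-22186069 (minus). The RefSeq starts behind the Pim1, Plin2, Zfand5 and Plxnd1 promoters lie inside the span of the gene in the RefSeq gene table, while those of Nid1, Cdc20 and Ckap2 lie at its edge.
Nid1: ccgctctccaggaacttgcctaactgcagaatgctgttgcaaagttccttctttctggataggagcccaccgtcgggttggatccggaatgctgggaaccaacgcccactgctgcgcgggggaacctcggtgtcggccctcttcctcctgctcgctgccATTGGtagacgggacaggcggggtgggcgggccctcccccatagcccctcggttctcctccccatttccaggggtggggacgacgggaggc
Pim1: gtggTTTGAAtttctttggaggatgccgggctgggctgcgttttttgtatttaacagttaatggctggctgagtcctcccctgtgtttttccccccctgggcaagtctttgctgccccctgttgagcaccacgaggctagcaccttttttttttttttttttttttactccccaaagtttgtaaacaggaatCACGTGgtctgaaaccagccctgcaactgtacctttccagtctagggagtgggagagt
Plin2: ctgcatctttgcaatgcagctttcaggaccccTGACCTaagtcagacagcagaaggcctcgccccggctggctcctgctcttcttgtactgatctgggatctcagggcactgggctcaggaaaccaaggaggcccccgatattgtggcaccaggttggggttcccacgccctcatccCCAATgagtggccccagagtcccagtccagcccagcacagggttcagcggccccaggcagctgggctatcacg
Zfand5: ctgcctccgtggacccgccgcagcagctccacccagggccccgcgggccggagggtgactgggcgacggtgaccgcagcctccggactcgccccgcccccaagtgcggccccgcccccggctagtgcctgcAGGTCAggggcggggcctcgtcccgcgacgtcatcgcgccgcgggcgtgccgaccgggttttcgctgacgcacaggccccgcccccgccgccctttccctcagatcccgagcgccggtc
Plxnd1: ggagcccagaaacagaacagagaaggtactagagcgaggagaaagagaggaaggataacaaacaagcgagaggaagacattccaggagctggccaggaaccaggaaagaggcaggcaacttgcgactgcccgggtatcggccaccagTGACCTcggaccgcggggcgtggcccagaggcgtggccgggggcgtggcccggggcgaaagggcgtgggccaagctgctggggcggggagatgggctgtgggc
Cdc20: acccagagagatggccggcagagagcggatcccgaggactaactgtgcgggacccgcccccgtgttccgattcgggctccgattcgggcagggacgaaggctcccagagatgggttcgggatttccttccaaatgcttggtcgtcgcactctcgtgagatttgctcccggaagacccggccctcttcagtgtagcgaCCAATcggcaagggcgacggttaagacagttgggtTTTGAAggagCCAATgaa
Ckap2: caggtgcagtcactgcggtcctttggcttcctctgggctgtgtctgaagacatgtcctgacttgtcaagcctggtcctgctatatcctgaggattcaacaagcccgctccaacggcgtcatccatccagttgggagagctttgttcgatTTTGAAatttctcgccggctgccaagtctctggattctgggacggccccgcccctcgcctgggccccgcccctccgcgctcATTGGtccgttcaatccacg

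Plin2, Zfand5 and Plxnd1, all with crests after 33 h, each hold 1 RORE half-site. Among promoters of the 23 members with a rule-fitted crest from 33 h, 5 of 21 (23.8%) hold it, against 4 of 24 (16.7%) for the 27 earlier members and 10.3% of all 11038 promoters. Counted by gene, 5 of 17 later and 3 of 18 earlier members hold it, because 2 overlapping Apol9b promoters share the same sites. Promoters on chr18 are not among the 11038. Cdc20 and Ckap2 each hold 1 CHR, with 2 CCAAT boxes in Cdc20 and 1 in Ckap2. They are the 2 of 4 promoters with the CHR among members on the G2/M list described below. The other promoters of that list, of Knstrn and Cdca8, hold none. The CHR letters were found in 5 of 24 earlier (20.8%) and 1 of 21 later (4.76%) promoters, against 10.6% of all. The E-box was in 8.89% of member promoters and 8.49% of all, the D-box TTANNTAA in 4.44% and 3.22%, and CCAAT in 46.7% and 35.8%. No 2 matches overlap in the promoters printed, and a match says only that the letters are there.

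By function the later members include Sash1 (an SH3-domain scaffold), Prag1 (a pseudokinase), Pim1 and Ripk2 (kinases), Plin2 (a lipid droplet coat protein), Zfand5 (a zinc finger protein that stimulates the proteasome), Plxnd1 (a semaphorin receptor), Clmp (a cell adhesion molecule), Btg2 (an antiproliferative factor), Leo1 (a subunit of the PAF1 elongation complex), Wsb1 (an E3 ligase adaptor), Errfi1 (an inhibitor of the EGF receptor), Cyp26b1 (which breaks down retinoic acid), Mybl2 (the transcription factor B-MYB), Stx6 (a SNARE) and Cxcl5 (a chemokine). The earlier members hold a mitotic group. Incenp and Cdca8 (borealin) belong to the chromosomal passenger complex, Cdc20 activates the anaphase-promoting complex, Knstrn acts at kinetochores, Cdca2 brings phosphatase 1 to chromatin, and Ckap2 and Pimreg are mitotic proteins. These 7 are on the G2/M list used here, whereas Pttg1 (securin), which the anaphase-promoting complex degrades, Cep55 (cytokinetic abscission) and Mybl2 are not on it. Other earlier members are Nid1 (nidogen, of basement membrane), Dctd (dCMP deaminase), Sema6b (a semaphorin), Raet1d (a ligand of the NKG2D receptor) and Apol6 and Apol9b (apolipoprotein L family). Several members are long noncoding or unnamed transcripts. Pim1 and Gm26885 overlap on opposite strands, and Hk1os, Gm39325 and 2610027K06Rik lie in or across Hk1, Usp2 and Bcas3. The libraries are stranded, but no source used here states the strand setting of the counting. Raet1d, Apol9b and H2-T-ps belong to multigene families, so their shares of reads are uncertain.

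**Figure D1:**
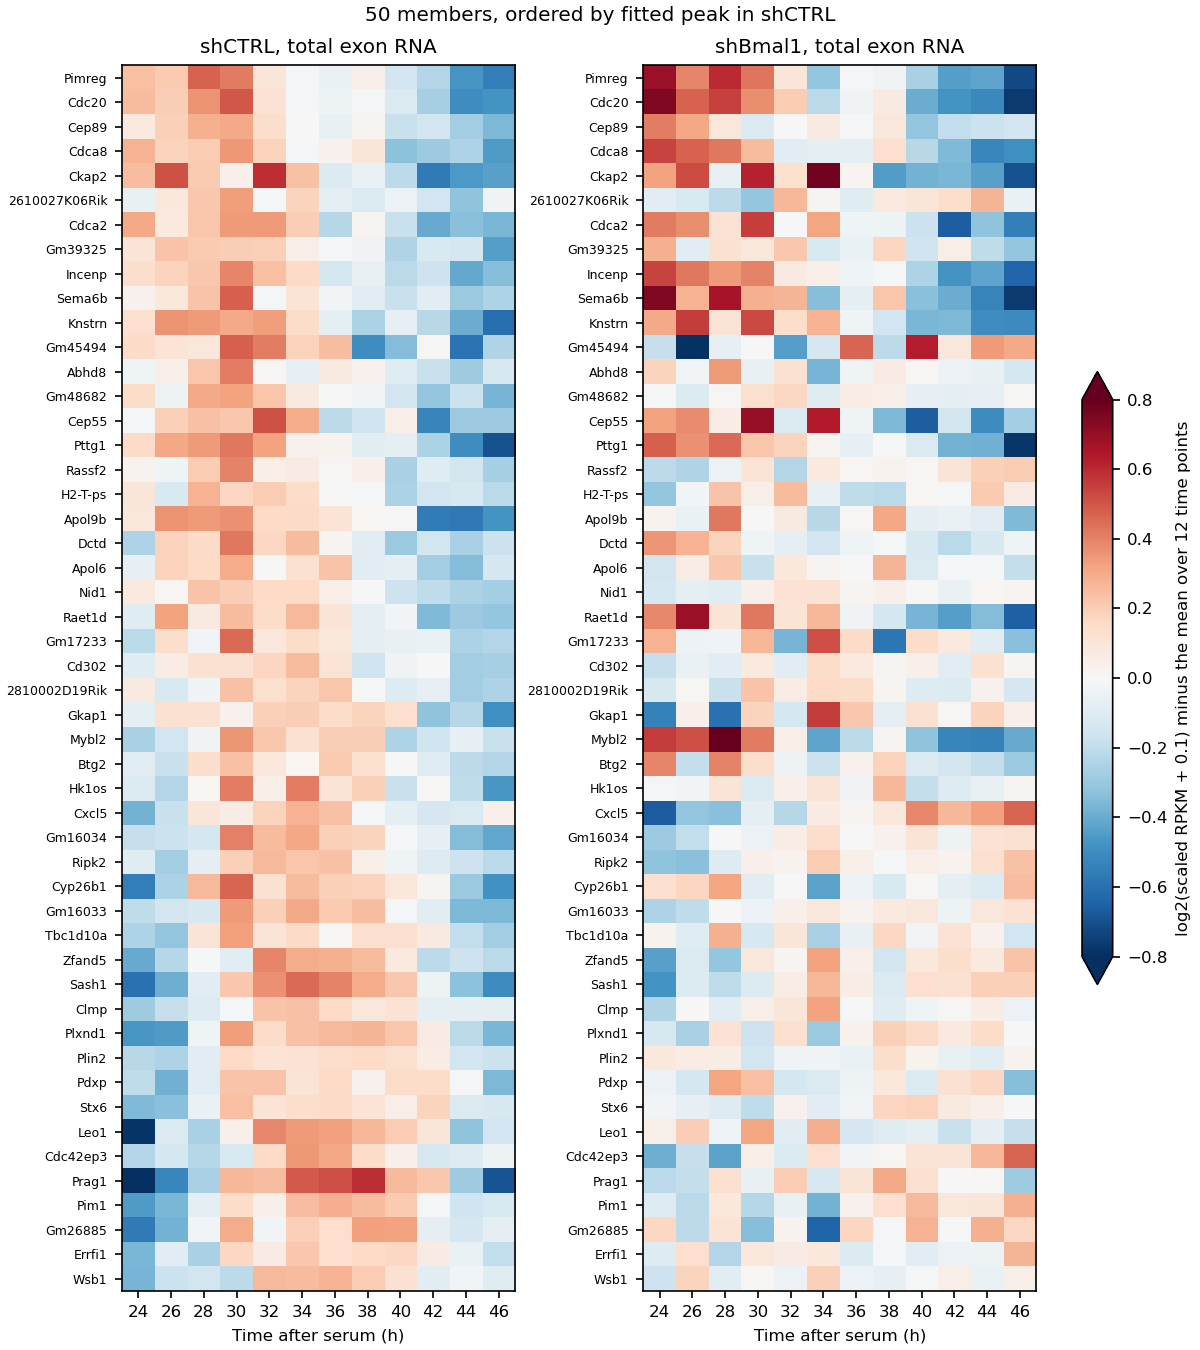
Total exon RNA of all 50 members, each row centred on its mean over the 12 time points (log2 of scaled RPKM plus 0.1, colour capped at 0.8 either way) and ordered by the rule-fitted crest in shCTRL, with 1 library per column. In shCTRL the red moves from about 30 h at the top to about 36 h at the bottom. Among the mitotic rows at the top, Cdc20 and Incenp fall from 24 to 46 h in shBmal1. Ckap2, Cdca2 and Knstrn alternate there, with a higher mean at 26, 30 and 34 h than at 28 and 32 h.

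In shCTRL the 10 members with the highest R squared spanned mean levels from 2.33 RPKM (Prag1) to 190.5 RPKM (Nid1), after scaling libraries to a common median. Sash1 exon RNA was lowest at 22.1 RPKM (24 h), had a median of 35.8 and was highest at 45.98 (34 h), a 2.08-fold range. Its level rose at each step to 34 h and fell at each step after it. Prag1 ran from 1.20 (24 h) through a median of 2.61 to 3.39 RPKM (38 h), a 2.82-fold range, with the low values at both ends of the series. Leo1, which ranks 17th by R squared and so is outside these 10, ran from 0.964 (24 h), median 1.82, to 2.29 RPKM (32 h). Plxnd1 ran from 7.64 (24 h), median 11.4, to 13.4 RPKM (30 h), with 11.8 to 12.8 RPKM from 32 to 40 h, so its crest was broad. Over 6 more of these 10 the highest value was 1.33 to 1.77 times the lowest, from 8.11 to 13.6 RPKM for Pim1, 64.3 to 85.4 for Plin2, 7.79 to 11.3 for Ripk2, 9.17 to 15.9 for Zfand5, 13.1 to 21.2 for Gm16033 and 11.1 to 19.6 for Gm16034. Nid1, the most abundant, ran from 157 RPKM (46 h) to 222 RPKM (28 h).

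The mitotic members had a different shape. Cdc20 was 38.1 RPKM at 24 h, 45.1 at 30 h (its highest), and 22.6 at 44 h (its lowest), with a median of 31.7. Knstrn held 3.49 to 4.10 RPKM from 24 to 34 h and fell to 2.05 RPKM at 46 h. Ckap2 was highest at 32 h (7.04 RPKM) and lowest at 42 h (3.10 RPKM). Incenp was highest at 30 h (16.5 RPKM) and lowest at 44 h (9.43 RPKM). In these 4 the last values lay below the first, so the fitted wave did not cover a closed cycle. Knstrn held a plateau and then fell, while Cdc20, Incenp and Ckap2 were highest at 30 or 32 h and lowest at 42 or 44 h.

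**Figure D2:**
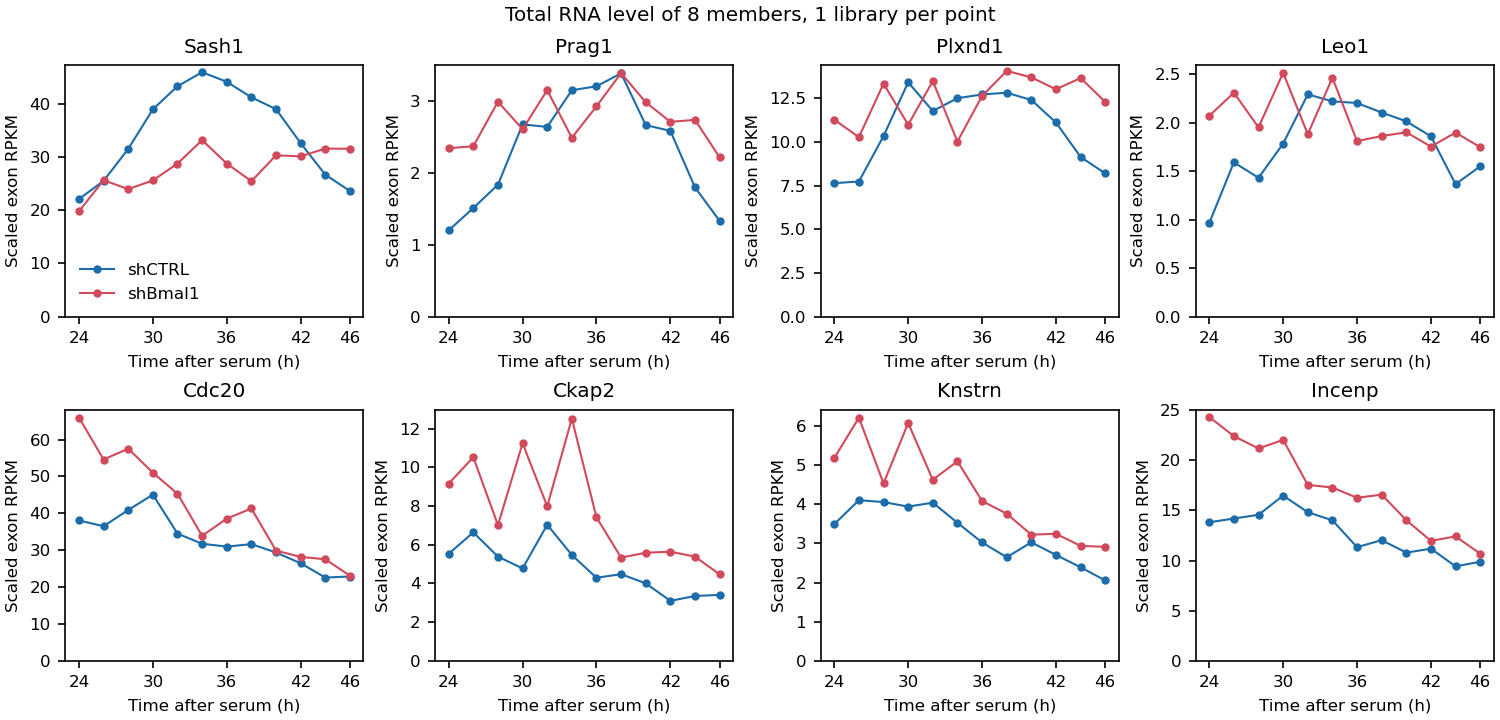
Scaled exon RPKM of 4 later members (top) and 4 mitotic members (bottom) against hours after serum, 1 library per point, total RNA of shCTRL (blue) and shBmal1 (red). Sash1 rises 2.08-fold and returns in shCTRL and ends at 31.6 RPKM in shBmal1, Cdc20 and Incenp fall from 24 to 46 h in shBmal1, and the red points of Ckap2 alternate up to 34 h.

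Whether the wave was present in newly made RNA of the control line was tested in the 3 kinds of value the rule did not use. A 24-h rhythm was called in 4sU intron RNA (unspliced, newly made) for 11 of 47 members tested (limma on 10496 genes, Benjamini-Hochberg adjusted p under 0.05), where 1.12% of all genes were called. The count was 18 of 50 in 4sU exon RNA (1.98% of genes) and 16 of 44 in total intron RNA (1.34%). In all 3 the same 8 members were called, which were Sash1, Nid1, Gm16033, Gm16034, Dctd, Gm48682, Stx6 and Pttg1, and 29 of 50 in none. Because each 4sU library shares its extract with a library the rule used, and intron and exon values of total RNA share libraries, these calls are further readings of the same cultures. On the G2/M list 1 member (Knstrn) was called of 7 tested in 4sU exon RNA and of 6 in total intron RNA, and none of 7 in 4sU intron RNA, where their amplitudes were 0.24 to 0.44. Without the 24 h libraries these counts were 5, 5 and 4. Without 46 h they were 1, 2 and 2. The call of Knstrn in 4sU exon RNA was lost without 44 h, and no member of the list was called in total introns without 30, 32, 40, 42 or 44 h.

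In shCTRL 4sU intron RNA, Sash1 ran from 0.704 (46 h) to 1.28 RPKM (32 h), with a fitted amplitude of 0.40 ± 0.06 (SE, log2) and a crest at 34.3 ± 0.54 h (adjusted p = 0.00182). Prag1 ran from 0.0661 (24 h) to 0.170 RPKM (32 h), with an amplitude of 0.49 ± 0.07 and a crest at 34.8 h (adjusted p = 0.000905). Both were low at the first and last time points and high at 32 to 36 h. Nid1 fell from 1.55 RPKM at 26 h to 0.863 at 44 h, with a crest at 28.4 ± 0.46 h (adjusted p = 0.000288). Pttg1 fell from 1.25 RPKM at 26 h to 0.530 at 44 h (crest 28.7 h, adjusted p = 0.00905), and both were thus high in the first 3 libraries. Gm16033 ran from 11.5 (46 h) to 22.5 RPKM (30 h, adjusted p = 0.00187) and Gm16034 from 10.7 (46 h) to 22.2 RPKM (30 h, adjusted p = 0.00337). Tbc1d10a (a Rab GTPase-activating protein) ran from 0.998 (24 h) to 1.45 RPKM (34 h, adjusted p = 0.00385). Gm48682, Leo1, Stx6 and Dctd also passed, at adjusted p = 0.0142, 0.0242, 0.0246 and 0.0401.

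The crest in 4sU intron RNA lay before that in total exon RNA for 8 of these 11 members and after it for 3, with differences from -2.86 to 0.74 h and a median of -0.73 h. Dctd (-2.86 h), Nid1 (-2.58 h), Leo1 (-2.34 h) and Pttg1 (-1.88 h) had the widest lead, and Gm48682 (0.74 h), Stx6 (0.45 h) and Gm16034 (0.16 h) came later. The SE of a single crest in these members was 0.331 to 0.767 h, so the 6 differences of under 1 h were of the size of their error. With a line in time added to the fit, Dctd, Nid1, Leo1, Pttg1, Gm48682 and Stx6 were no longer called. For the 5 members still called, the differences given by the fit without that line were -1.09 h (Prag1) to 0.16 h (Gm16034). In 4sU exon RNA the median difference over 18 called members was -0.29 h. Over all members tested, most of whose crests were not called, the median was -1.09 h in 4sU introns (32 of 47 earlier) and -0.71 h in 4sU exons (35 of 50 earlier). The total exon crest in these differences is the one the rule selected.

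**Figure D3:**
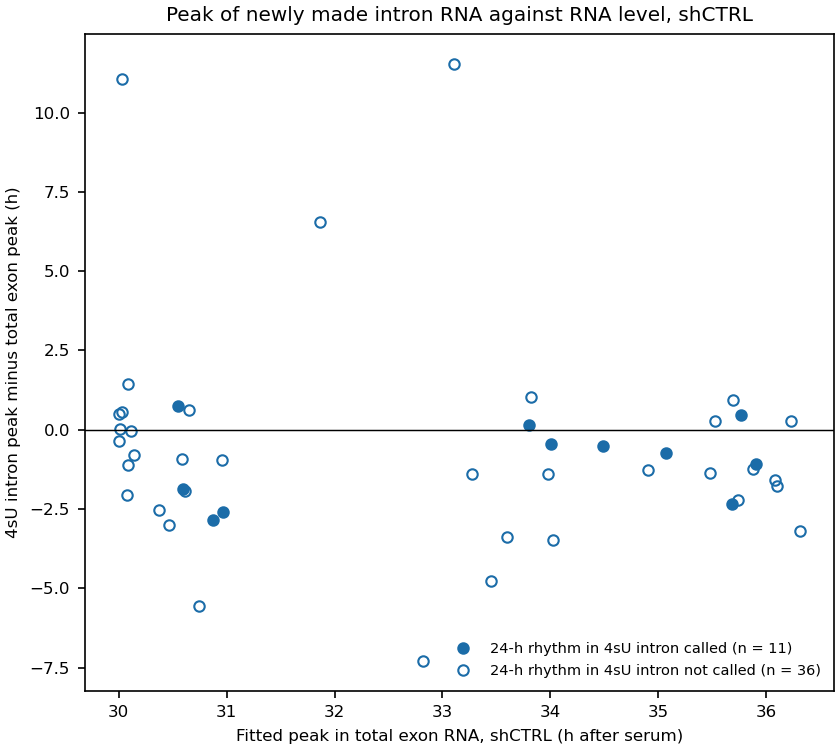
Crest in 4sU intron RNA minus crest in total exon RNA (h) against the total exon crest, shCTRL, for the 47 members tested in 4sU intron RNA. Filled points are the 11 members with a called 24-h rhythm there, which lie between -2.86 and 0.74 h, and open points, not called, scatter more widely.

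A linear drift over the 22 h sampled is hard to tell from part of a 24-h wave, so the fits were repeated with a line in time for each cell line. With it 5 members were called in 4sU intron RNA (Sash1, Prag1, Gm16033, Gm16034 and Tbc1d10a), 7 in 4sU exon RNA (Sash1, Prag1, Gm16033, Gm16034, Plxnd1, Cyp26b1 and Gm26885) and 6 in total intron RNA (Sash1, Gm16033, Gm16034, Zfand5, Cyp26b1 and Gm26885). All of these are later members, and none of the 27 earlier members was called. A wave with its crest near the middle of the sampled span rises and falls evenly, so a line takes little of it. One with an earlier crest resembles a fall and loses more to the line. This split therefore cannot separate a property of the genes from the place of their crest. With no linear term, but without the 40 h libraries, the 3 counts were 6, 10 and 7 (0.467%, 0.799% and 0.579% of all genes). Without those at 42 h they fell to 7 in 4sU intron RNA and 8 in total intron RNA, and without those at 24 h the first was 18 (1.96% of all genes). The 4sU exon count was 8 to 10 without 36, 38 or 44 h, and the total intron count 9 or 10 without 34, 36 or 44 h. Over all genes the share called with 1 time point left out was 0.438% to 1.96% in 4sU introns, 0.799% to 2.51% in 4sU exons and 0.579% to 1.65% in total introns. No such share is given with the linear term, so those counts are not read as particular to the members.

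In total exon RNA of the shBmal1 line a 24-h rhythm was called for 14 of 50 members, against 11.1% of all 10910 genes. These were all 7 members on the G2/M list, 5 of the 20 other earlier members (Pttg1, Cep55, Raet1d, Sema6b and Dctd) and 2 of the 23 later members (Mybl2 and Cxcl5). With 1 time point left out the count of mitotic members was 5 to 7. That of other earlier members was 1 without 40 h and 3 without 28, 30, 38, 42 or 44 h, and at most 6. That of later members was 5 without 26 or 32 h, 4 without 46 h, 3 without 24, 28 or 30 h and 1 without 40 h. Over all genes the calls moved as well, from 376 without 40 h to 1825, against 1213 with every time point. The median fitted amplitude of the 23 later members was 0.12 in shBmal1 and 0.26 in shCTRL, and that of the 7 mitotic members 0.43 and 0.34, against 0.10 and 0.08 over all genes. The shCTRL amplitudes are what the rule selected, so the comparison of amplitudes in total exon RNA was not tested.

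Cdc20 in shBmal1 total RNA fell from 66.0 RPKM at 24 h through a median of 39.9 to 23.1 at 46 h (amplitude 0.48 ± 0.08, crest 29.0 h, adjusted p = 0.00282). Incenp fell from 24.3 RPKM at 24 h to 10.7 at 46 h (adjusted p = 0.00191), and Mybl2 from 2.69 RPKM at 28 h to 0.950 at 44 h (amplitude 0.52 ± 0.07, crest 28.1 h, adjusted p = 0.000661). Each of the 3 was high at the start and low at the end. The crests of the 7 mitotic members were fitted at 28.7 to 30.3 h. Cxcl5 moved the other way, from 34.7 RPKM at 24 h to 76.0 at 46 h (crest 40.5 h, adjusted p = 0.0104). Among later members that were not called, Sash1 ran from 19.8 RPKM (24 h) to 33.2 (34 h), and ended at 31.6, and its amplitude was 0.15 ± 0.05 (adjusted p = 0.0872). Prag1 ran from 2.22 to 3.39 RPKM with an amplitude of 0.16 ± 0.06 (adjusted p = 0.138). Plin2 stayed between 81.4 and 99.0 RPKM (amplitude 0.02 ± 0.03, adjusted p = 0.881).

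With a linear term in time, none of the 50 members kept a called 24-h rhythm in shBmal1 in any of the 4 kinds of value, so for these members a wave and a drift over 22 h cannot be told apart there. Over all genes, calls in total exon RNA also fell to very few, by the counts in the closing section. The loss is thus not particular to the members. Without the shBmal1 libraries at 26, 30 and 34 h, 12 members were called in total exon RNA (10.4% of all genes), among them 4 of 7 mitotic members (Incenp, Cdc20, Cdca8 and Pimreg) and 5 of 23 later ones (Sash1, Btg2, Mybl2, Cdc42ep3 and Cxcl5). The change is seen in Ckap2, which was 10.5, 11.2 and 12.5 RPKM at 26, 30 and 34 h, but 7.02, 7.99 and 7.42 at 28, 32 and 36 h. Cep55 alternated likewise, by 0.60 on the log2 scale for each of the 2 genes, with 0.36 for Cdca2 and 0.33 for Knstrn, whereas Plxnd1 (-0.36) and Gm26885 (-0.46) moved in the opposite direction. Without the 40 h libraries 8 members were called (3.45% of all genes).

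In newly made RNA of shBmal1, 9 of 47 members had a called 24-h rhythm in introns (5.82% of genes), with crests at 28.3 to 30.3 h in 7 of them. The smallest adjusted p values were those of Cdca2 and Cep55 (0.00336 each), Gm39325 (0.00569), Ckap2 (0.00697) and Knstrn (0.00748). Ckap2 intron RNA was 0.899 to 1.01 RPKM from 24 to 30 h and 0.288 RPKM at 46 h. Cdca2 ran from 0.220 RPKM (26 h) to 0.0820 (46 h). Both were high early and lowest in the last library. Gm16034 and Gm26885 had late crests instead, at 40.6 and 43.5 h. In 4sU exon RNA 15 of 50 members were called, where 17.9% of all genes were, and in total introns 9 of 44 (5.16%). Without the shBmal1 libraries at 26, 30 and 34 h the 3 counts were 1, 4 and 0 (0.343%, 4.9% and 0.11% of all genes). Without 40 h they were 4, 6 and 3 (1.26%, 5.82% and 0.379%), without 30 h the first 2 were 4 and 7 (2.21% and 7.68%), and without 42 h the last was 5 (1.7%).

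**Figure D4:**
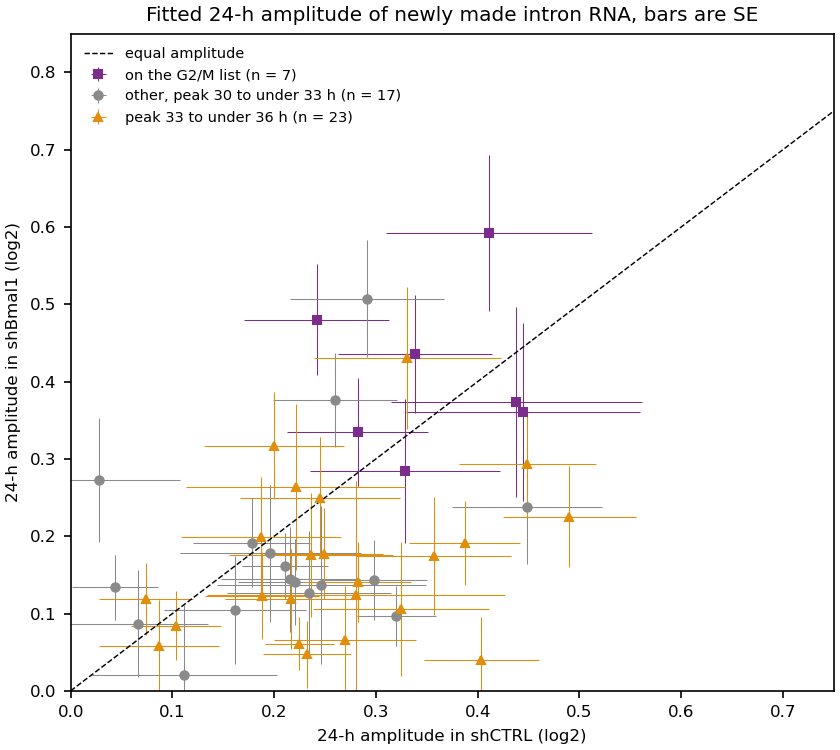
Fitted 24-h amplitude (log2, bars are SE) of 4sU intron RNA in shBmal1 against shCTRL for the 47 members tested, by group. Sash1 is the lowest triangle near 0.40 on the x axis, at 0.04 in shBmal1, and 4 of the 7 mitotic members lie above the line of equal amplitude.

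The difference of the 24-h rhythm between the lines was tested only outside total exon RNA. In 4sU exon RNA it was called for 8 of 50 members (1.06% of genes), of which 7 peak from 33 h and 1 earlier (Gm48682). Sash1 4sU exon RNA rose from 34.2 RPKM (24 h) to 75.2 (34 h) and was 36.7 at 46 h in shCTRL, but ran from 32.4 (24 h) to 58.1 RPKM (46 h) in shBmal1 (adjusted p = 0.0222). Prag1 ran from 1.80 to 4.15 RPKM (38 h) in shCTRL and from 2.98 to 4.42 RPKM in shBmal1 (adjusted p = 0.0337). Both returned to near their first value in shCTRL. Plxnd1 was 13.2 RPKM at 30 h in shCTRL and 7.98 in shBmal1, where it was highest at 40 h (12.9 RPKM, adjusted p = 0.0284). Cyp26b1 was 8.69 RPKM at 30 h in shCTRL and 4.87 in shBmal1 (adjusted p = 0.031). The shBmal1 library at 30 h is among those that stood apart, but Plxnd1 and Cyp26b1 were still called without those shBmal1 libraries. Without 30 h in both lines only 1 member was called. In 4sU exon RNA 22.5% of all genes had their highest shCTRL value at 30 h, against 4.88% in shBmal1. Which line's library gave the difference at 30 h was not tested.

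Gm16034 rose in 4sU exon RNA of shCTRL to 30.7 RPKM at 30 h and fell to 17.8 at 46 h, and in shBmal1 rose from 22.0 RPKM at 24 h to 34.0 at 46 h (adjusted p = 0.00703). Gm16033 showed the same 2 shapes (adjusted p = 0.0214). In 4sU intron RNA 4 of 47 members were called (0.286% of genes), with adjusted p = 0.025 for Gm16034, 0.025 for Gm48682, 0.0445 for Gm16033 and 0.0471 for Gm26885, and all 4 were also called in 4sU exon RNA. In total introns none of 44 was called by limma (0.0999% of genes), and 19 had an unadjusted p under 0.05. None of the 7 mitotic members was called in any of the 3. Without the shBmal1 libraries at 26, 30 and 34 h, 5 members were called in 4sU exon RNA (Plxnd1, Gm16034, Gm48682, Sash1 and Cyp26b1) and none in 4sU introns (1.03% and 0.2% of all genes). With a linear term, 1 was called in 4sU exon RNA (Sash1, adjusted p = 0.0113), none in 4sU introns and 1 in total introns (Cyp26b1, adjusted p = 0.049). Shares of all genes with that term are not given. Leaving out 1 time point gave 0 to 14 calls in 4sU exon RNA, 14 without 32 h, 5 without 38 h, 4 without 24 h, 3 without 28 h, 1 without 30, 34, 36, 40, 42 or 46 h and 0 without 44 h. The share of all genes moved as well, from 0.2% without 34, 36 or 40 h to 8.36% without 32 h. In 4sU introns it gave 2 without 38 h, 1 without 46 h, and 0 without 28, 30, 34, 36, 40, 42 or 44 h, with 0.0762% to 2.37% of all genes. In total introns it gave 2 without 32 h and 1 without 24 or 28 h, with 0.0599% to 0.2% of all genes.

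Mean levels over the 12 time points differed between the lines for most members, as for most genes. In total exon RNA 27 of 50 were higher and 10 lower in shBmal1, against 34.4% and 33.1% of all genes (67.6% in either direction), and the median difference was 0.20 (log2) against 0.01. All 7 mitotic members were higher, with differences of 0.30 to 0.64. Btg2, an antiproliferative gene, was higher by 1.45 ± 0.07 (SE, limma adjusted p = 9.14e-14), Apol6 by 1.08 ± 0.05 (adjusted p = 6.02e-13) and Dctd, which makes dUMP for thymidine synthesis, by 1.04 ± 0.04 (adjusted p = 2.83e-14). Clmp, an adhesion molecule, differed by -0.81 ± 0.04 (adjusted p = 1.42e-13). Sash1 differed by -0.28 ± 0.05 (adjusted p = 2.56e-05), and Errfi1 by -0.33 ± 0.05 (adjusted p = 6.96e-06). Nid1 exon RNA was 157 to 222 RPKM in shCTRL and 241 to 288 in shBmal1, so the lines did not overlap.

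In 4sU intron RNA 22 of 47 members were higher and 6 lower (22.1% and 22.3% of genes, 44.4% in all), after scaling that sets the median of all genes to the same level. On the values as deposited, whose shBmal1 intron scale differs by a factor of 1.35 to 1.39, the split was 6 higher and 32 lower. That factor lowers the shBmal1 4sU intron values of all genes alike, so this split is not particular to the members. Pttg1 was higher by 1.73 ± 0.07 (adjusted p = 1.06e-12), of which 0.975 equals the ratio of the intron lengths behind its RPKM (5249 bases in shCTRL 4sU, 2670 elsewhere). In total introns, with 1 length, it was higher by 0.88. Btg2 was higher by 1.24, Rassf2 (a Ras association domain protein) by 0.85 and Clmp differed by -0.73. The counts were 25 higher and 7 lower of 50 in 4sU exon RNA (27.5% and 26.9%, 54.4% in all) and 23 and 9 of 44 in total introns (29.3% and 26.8%, 56.1% in all). Lengths also differ between the groups for Dctd in 4sU exons (0.25 on the log2 scale), Incenp (0.0938) and Ripk2 (0.0582) in total exons and Plin2 in 4sU introns (0.258).

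**Figure D5:**
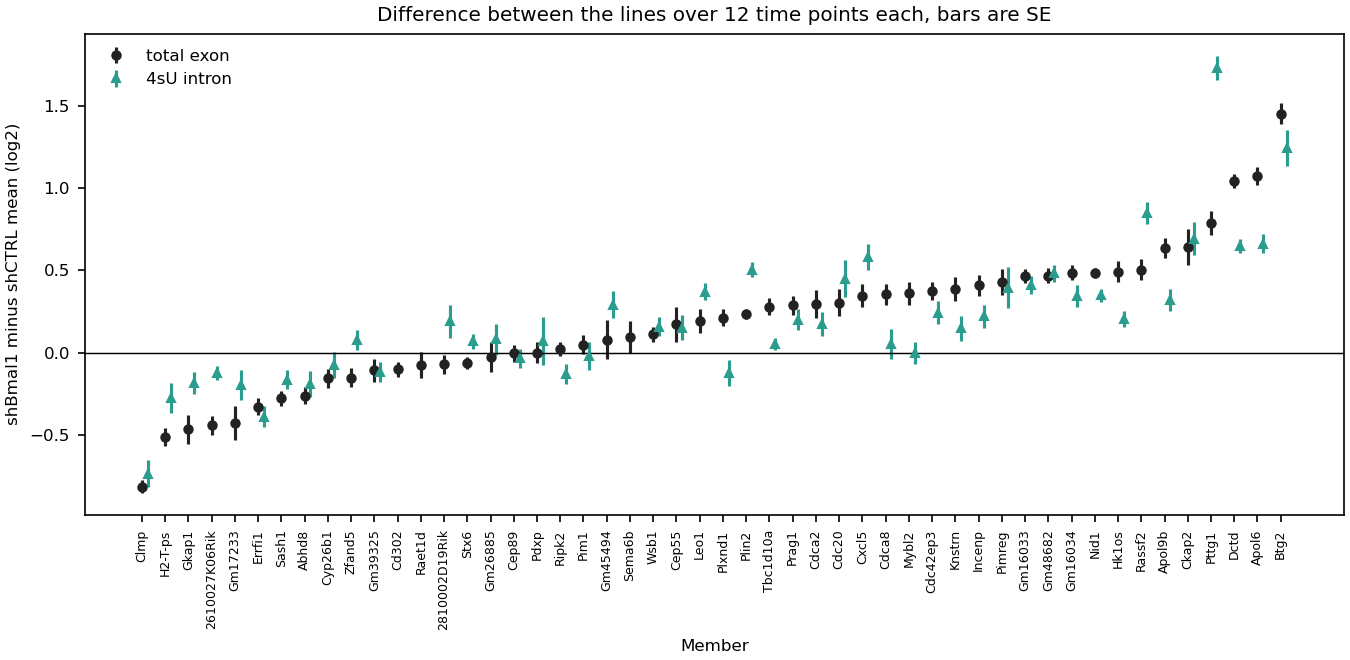
Mean of shBmal1 minus mean of shCTRL (log2, bars are SE) over 12 time points per line, for each member, in total exon RNA (circles) and 4sU intron RNA (triangles). Clmp is lowest at -0.81 and Btg2 highest at 1.45 in total exon RNA, and Pttg1 stands out in 4sU introns at 1.73, where its intron lengths differ.

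The ratio of 4sU to total exon RNA compares newly made with steady-state RNA. In shCTRL its median (log2) was 0.35 in the 23 later members and -0.29 in the 27 earlier ones, against 0.00 over all genes, and 17 of 23 and 7 of 27 lay above the median of all genes. This ratio in shCTRL mixes 2 exon lengths for 4 members, 2610027K06Rik (679 bases in total, 2067 in 4sU values), Dctd (2085 and 2482), Incenp (3416 and 3201) and Ripk2 (2671 and 2781). For the last 3 the mix is in shCTRL only and so also enters the difference between the lines, which was not called for any of the 4. Between the lines 7 of 50 members were higher and 6 lower in shBmal1 (15.9% and 12.1% of genes, 28% in all). The rises included Gkap1 (0.30), Rassf2 (0.21) and Sash1 (0.13), and the falls Mybl2 (-0.43), Plxnd1 (-0.21) and Knstrn (-0.21). Mybl2 was the furthest from 0 and Sash1 the nearest.

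Of the G2/M list without its 7 members, 47 genes were tested in total exon RNA. In shBmal1 27 were higher and 3 lower (34.4% and 33.1% of all genes), and 38 were called 24-h rhythmic (11.1%). These rhythm calls are from the fit with no linear term in time. In 4sU introns 33 of 45 were higher and none lower (22.1% and 22.3% of all genes). The mitotic members thus moved with other mitotic genes, and how many cells were dividing was not measured. Of 15 core clock genes tested in 4sU introns, 9 had a called 24-h rhythm in shCTRL (1.12% of all genes) and 4 in shBmal1 (5.82%). The rhythm differed between the lines in 7 of them (0.286%). In the left-out clock gene Nfil3 the 4sU intron crest was at 34.1 h with an amplitude of 1.12, larger than in any of the 47 members tested. A 12-h rhythm was called by limma for none of 50 members in shBmal1 total exon RNA (0.0183% of genes, 17 members at an unadjusted p under 0.05) and none of 47 in shCTRL 4sU introns (0% of genes, 5 members unadjusted). The former count was 8 without 24 h (4.26% of all genes), 8 without 26 h (11.8%), 2 without 30 h (1.5%) and 10 without 32 h (18.1%), so without 26 or 32 h the members were near the share of all genes.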

How the data were processed

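Total and 4sU-labelled RNA of 2 stable NIH 3T3 lines was sequenced in 48 libraries, strand-specific, paired-end and depleted of ribosomal RNA per the labels' protocols. The deposited exon and intron values are RPKM made by the authors. Trim Galore and HOMER 4.11.1 are named per the submitters' processing notes, and no aligner is named in the sources used here. Depths recovered from the RPKM steps give exon totals of 48873013 to 76260143 reads, and intron totals of the shBmal1 4sU libraries are larger than their exon totals.

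Members and gene lists were chosen with earlier results of these data known. RPKM was scaled to a common median ratio, 0.1 (exons) or 0.02 (introns) was added, and log2 values were fitted with limma 3.58.1 (R 4.3.3; eBayes, trend and robust) over 24 libraries per layer, with an intercept and 24-h and 12-h cosine and sine terms for each line. Genes with a mean of at least 0.5 (exons) or 0.1 (introns) entered, and Benjamini-Hochberg adjusted p under 0.05 was called. A pseudocount understates the change of low genes. Fits were tested on simulated data. Named genes are any member by role, the 10 with the highest R squared, the 8 with the smallest adjusted p per test and direction, members past a test or at an extreme, and Arntl and the left-out clock genes. Alternatives were the deposited scale, other pseudocounts, no filter, a linear time term, fewer cosine terms, each time point left out and a time point block. Leaving out the shBmal1 libraries at 26, 30 and 34 h was chosen after seeing the data.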

Additional observations from a re-analysis of the deposited data

Results flagged for a closer look

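The 24-h rhythm differed between the lines, by limma's test of the difference itself, for 8 members in 4sU exon RNA. The adjusted p was 0.00703 for Gm16034, 0.0214 for Gm16033, 0.0222 for Sash1, 0.0247 for Gm48682, 0.0284 for Plxnd1, 0.031 for Cyp26b1, 0.0337 for Prag1 and 0.0424 for Gm26885. In 4sU intron RNA it was 0.025 for Gm16034, 0.025 for Gm48682, 0.0445 for Gm16033 and 0.0471 for Gm26885. Without the shBmal1 libraries at 26, 30 and 34 h, which stood apart, none of the 4 intron differences was called.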

How the results depend on the processing

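Counts of members called are given here, mostly without the share of all genes. Calls over all genes also moved with the setting, so a changed count is not particular to the members. With RPKM as deposited, 2 members had a 12-h rhythm in shBmal1 total exon RNA and 1 a rhythm difference in total introns. With a linear time term, 24-h rhythms in shBmal1 numbered 0 in total exon, 4sU intron, 4sU exon and total intron values, those in shCTRL 5, 7 and 6 in 4sU intron, 4sU exon and total intron values, and rhythm differences 0, 1 and 1. With that term the rule shared 24 members with the 50 chosen. With the other-period terms left out, total intron calls were 9 in shCTRL and 3 in shBmal1. Without the shBmal1 libraries at 26, 30 and 34 h, chosen after seeing the data, 1 member had a 12-h rhythm in shBmal1 total exons, 24-h rhythms in shBmal1 numbered 1, 4 and 0 in 4sU intron, 4sU exon and total intron values, and rhythm differences 0 and 5 in 4sU introns and exons. The cause of these changes was not tested.

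Leaving out 1 time point in both lines gave 34 to 38 mean differences in total exons, 23 to 29 in 4sU introns, 26 to 34 in 4sU exons, 29 to 32 in total introns and 10 to 16 in the ratio. For shCTRL 24-h rhythms it gave 6 to 18, 8 to 19 and 7 to 18 in 4sU introns, 4sU exons and total introns. For shBmal1 it gave 8 to 18, 4 to 13, 6 to 21 and 3 to 11 in total exons, 4sU introns, 4sU exons and total introns. Rhythm differences were 0 to 4, 0 to 14 and 0 to 2, 12-h rhythms 0 to 10 in shBmal1 and 0 to 0 in shCTRL, and the rule shared 28 to 42 members. Over all genes, shBmal1 total exon 24-h calls were 1213, 11 with the linear term and 376 to 1825 over the time points left out. In 4sU introns, 4sU exons and total introns of shBmal1 those ranges were 132 to 1542, 641 to 4026 and 38 to 558. In shCTRL they were 46 to 206, 88 to 276 and 58 to 165.

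With the time point as a replicate block, 33, 27, 29, 32 and 12 members differed in mean in total exons, 4sU introns, 4sU exons, total introns and the ratio. The time points are shared by the lines by design, and nothing in the labels ties cultures of the lines together.

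The deposited scale lowers the shBmal1 4sU intron values of all genes relative to shCTRL. On the deposited scale the 4sU intron mean difference changed sign for 13 members, to -0.209 for Prag1, -0.12 for Nid1, -0.0629 for Gm16033, -0.131 for Gm16034, -0.244 for Incenp, -0.0781 for Leo1, -0.314 for Wsb1, -0.124 for Apol9b, -0.228 for Cdc42ep3, -0.0227 for Cdc20, -0.256 for Hk1os, -0.167 for Gm45494 and -0.0773 for Pimreg. With the linear term the fitted crest moved by over 6 h for 9 results, with amplitudes of 0.0418 for Sema6b, 0.103 for Pttg1 and 0.0977 for Cxcl5 in total exons, 0.0271 for Incenp and 0.0561 for Mybl2 in 4sU introns, 0.179 for Sash1 and 0.231 for Pimreg in 4sU exons, and 0.0864 for Incenp and 0.0436 for Cdc20 in total introns. Of 246 member results past the test, 112 stayed past it in the same direction under every alternative run. Depth limits the least abundant members: the median reads per library were under 100 for 2 or 3 members in exons and 4 to 8 in introns.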
